A study of Homo sapiens with 8 samples.

Results

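Antisense long non-coding RNAs are transcripts read from the strand opposite a named sense gene, and their symbols end in -AS with or without a number. Of 999 such symbols in the deposited table of 26475 genes, 281 had a mean of at least 0.5 CPM, the count as parts per 1e6 of the library total, over the 8 libraries. These 281 RNAs, DSCAM-AS1 among them, are described here. They were chosen by this mean level over both groups together, which uses no difference between the groups. Just inside that floor stood NAPA-AS1 at 0.503 CPM and SAMD12-AS1 at 0.509 CPM, and just outside it RGMB-AS1 at 0.495 CPM and FAS-AS1 at 0.494 CPM. Of the 718 symbols below the floor, 258 had no count in any library.

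The libraries came from BT474, a long-established line of human luminal breast cancer cells with amplified ERBB2. The labels describe 4 as NPY1R high and 4 as NPY1R low, NPY1R being the receptor Y1 of neuropeptide Y, and the series title places them in work on cells that persist under lapatinib. How cells of high and low NPY1R were separated is not given in the sources used here, and neither is a drug, a time or a genetic change for these libraries. All cells were seeded below confluence, and all come from a single cell line.

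Long non-coding RNAs of this kind often start beside or inside the gene they are named after. Some share a promoter region with it and run the other way, and some lie within its introns or cross its exons. A few have known functions of their own, as hosts of small nucleolar RNAs, as binders of proteins or microRNAs, or as regulators of the neighbouring gene, while most have no settled function. DSCAM-AS1 is known from luminal breast cancers, where estrogen receptor alpha drives it and the RNA-binding protein HNRNPL binds its transcript. It lies inside the gene of DSCAM, a cell adhesion molecule of neurons.

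Library totals ranged from 18025648 to 30609791 counts, and the 281 RNAs took 0.18% to 0.207% of them. NPY1R had between 699 and 1050 CPM in the NPY1R high libraries and between 90.8 and 104 CPM in the NPY1R low libraries, so the levels follow the labels. Levels from here on are CPM after TMM scaling between libraries, and a value with ± is the mean and SD over the n = 4 libraries of a group. The 8 luminal markers, ERBB2 and KRT8 among them, averaged 30.9 CPM or more. The summed level of the 5 leukocyte markers stayed between 0.55 and 1.19 CPM, with 2 of them at 0, and the 6 fibroblast markers summed to between 10.4 and 17.5 CPM in either group, with 3 at 0. The 5 basal markers summed to 7.07 to 11.3 CPM, TP63 being the highest at 6.32 CPM. The 4 endothelial markers, mostly VWF at 13.9 CPM, summed to 9.22 to 15.6 CPM in NPY1R high and 13.5 to 18.2 CPM in NPY1R low, and the part of such cells in the results was not tested. Changes are log2 differences, NPY1R high minus NPY1R low, from edgeR's quasi-likelihood test on all 14008 tested genes, with Benjamini-Hochberg adjustment over all of them and a threshold of 0.05.

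All 281 antisense RNAs passed the filter on low counts. Past the threshold, 7 rose and 7 fell in NPY1R high, together 4.98%, where 13.6% of all tested genes passed (5.78% higher and 7.81% lower). A change of at least 2-fold past the threshold was found for 5 antisense RNAs, namely DSCAM-AS1, KLF3-AS1, MAFG-AS1, CALML3-AS1 and ZNF503-AS1, or 1.78% of the set, beside 3.20% of all tested genes. The 2 groups of libraries did not overlap for 33 antisense RNAs (11.7%), and for 20.2% of all tested genes. The median SE on the log2 scale was 0.21 over the antisense RNAs and 0.11 over all tested genes. Between 0.5 and 5 CPM, where 218 of the 281 lie, the median SE was 0.24 for the antisense RNAs and 0.25 for all tested genes of that level. There 8 antisense RNAs passed (3.67%), beside 12.2% of all 3116 tested genes of that level. Between 5 and 50 CPM 5 of 54 passed (9.26%, beside 11.8%), and at 50 CPM or more 1 of 9 did (11.1%, beside 17.5%).

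**Figure D1:**
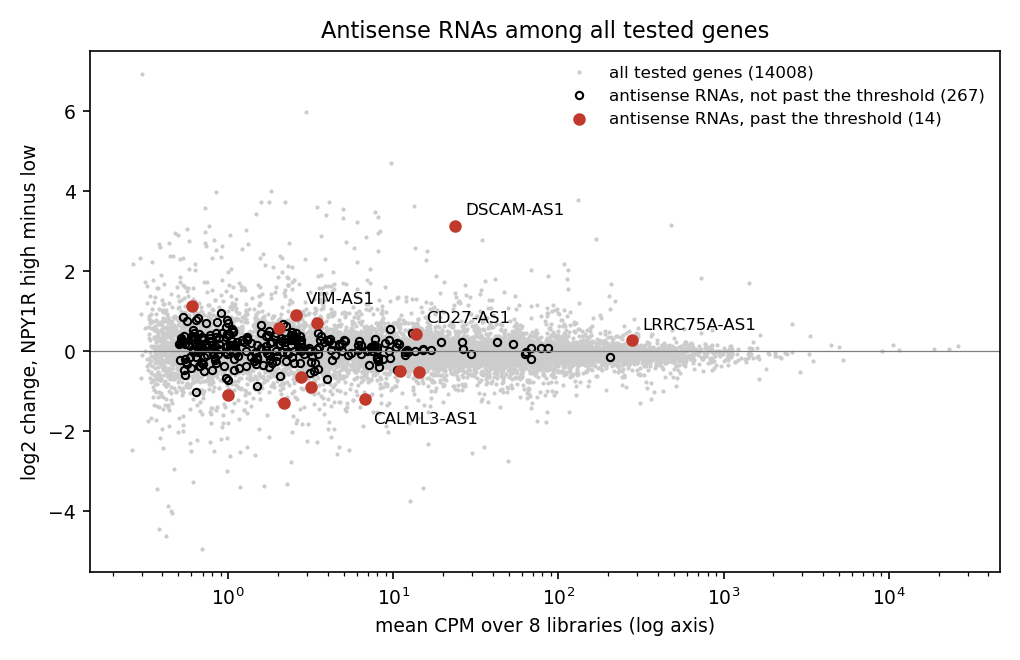
Log2 change between NPY1R high and NPY1R low (vertical axis) against mean CPM over the 8 libraries (horizontal log axis) for all 14008 tested genes (grey), the 267 antisense RNAs that did not pass the threshold (open circles) and the 14 that passed (red). DSCAM-AS1, at 3.14, stands far above the other antisense RNAs, most of which lie within 0.5 of no change.

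As a whole the set lay slightly above 0. The median log2 change was 0.09 over the antisense RNAs (quartiles -0.14 and 0.28) and -0.03 over all tested genes, and 175 of the 281 (62.3%) had a positive change, against 44.1% of all tested genes. The background depends on level. Between 0.5 and 5 CPM, 62.4% of the antisense RNAs and 53.4% of all tested genes had a positive change, with medians of 0.12 and 0.04. Between 5 and 50 CPM these shares were 63% and 46.2%, and at 50 CPM or more 55.6% and 33.8%. The 117 LINC RNAs, intergenic long non-coding RNAs chosen with the same floor, had a median of 0.10, with 10 higher and 2 lower past the threshold (10.3%). The summed level of the 281 antisense RNAs was 1990 ± 29.7 CPM in NPY1R high, against 1880 ± 40.6 in NPY1R low, with library values of 1950 to 2020 and of 1850 to 1930. Of the difference between these sums, 48.6% came from LRRC75A-AS1 and 34.7% from DSCAM-AS1. Scaling moved both medians. With upper-quartile factors the median was 0.15 over the antisense RNAs and 0.03 over all tested genes. Over 18 alternative fits it ran from 0.08 to 0.15, above the median of all genes in each of them.

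DSCAM-AS1 had 39.1, 41.1, 44.6 and 42.0 CPM in NPY1R high replicates 1 to 4. In NPY1R low replicates 1 to 4 it had 5.47, 4.52, 4.67 and 4.20 CPM. Every NPY1R high library thus stood far above every NPY1R low library. The means were 41.7 ± 2.29 and 4.71 ± 0.539 CPM, an 8.82-fold difference, with a log2 change of 3.14 (SE 0.10, edgeR adjusted p 2.18e-07). By p-value it was number 2 of all 14008 tested genes, and by size of its rise number 23. Its rise was close in size to that of NPY1R itself (8.96-fold, log2 change 3.16, SE 0.135). Over 18 alternative fits its change ranged from 3.12 to 3.255, and it passed the threshold in each. The difference was 2.99 within replicates 1 and 2 and 3.27 within replicates 3 and 4, a division of the libraries seen in earlier results that no label explains.

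In GENCODE 29 (GRCh38, the build the submitters' processing notes call hg38) DSCAM-AS1 lies on the plus strand of chromosome 21, from 40383083 to 40385358. All of its 2276 bases fall inside DSCAM, which is on the minus strand, and 0 of its exon bases overlap an exon of DSCAM. Its counts were whole numbers in all 8 libraries, so they show no reads divided between it and another gene. DSCAM itself was scarce, at 3.71, 4.09, 3.04 and 2.70 CPM in NPY1R high replicates 1 to 4. The NPY1R low libraries had 0.235, 0.210, 0.229 and 0.157 CPM of DSCAM, which are 4 to 7 counts each. DSCAM rose with a log2 change of 4.00 (SE 0.24, edgeR adjusted p 6.78e-06). Per kilobase of transcript, DSCAM-AS1 averaged 18.1 CPM and DSCAM 0.291 CPM, so the antisense RNA was by far the more abundant of the pair. The intronic transcript DSCAM-IT1 of the same locus had no count in any library.

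The log2 ratio of DSCAM-AS1 to DSCAM was 3.61 ± 0.312 in NPY1R high and 4.08 ± 0.143 in NPY1R low, a difference of -0.47 with an exact two-sided permutation p of 0.0571. With a prior count of 0.5 in place of 2 the difference was -0.76 (exact permutation p 0.0286, the least this design can reach), and with 5 it was -0.06 (exact permutation p 0.8). Whether the pair rose unequally therefore depends on how the 4 to 7 counts of DSCAM in NPY1R low are treated. Without strand in the counting, a read from unspliced DSCAM RNA inside the DSCAM-AS1 exons would also be counted for DSCAM-AS1, and these counts cannot tell them apart.

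Among the genes linked to DSCAM-AS1 in the literature, ESR1, which encodes estrogen receptor alpha, rose from 70.1 ± 2.93 to 105 ± 3.76 CPM. GATA3, a luminal transcription factor, rose from 24.6 ± 3.18 to 37.2 ± 4.13 CPM, and FOXA1, the factor that opens chromatin for the estrogen receptor, fell from 316 ± 11.3 to 270 ± 4.37 CPM. By edgeR the adjusted p was 7.23e-05 for ESR1, 0.00616 for GATA3 and 0.00891 for FOXA1, and FOXA1 lost the threshold without NPY1R high replicate 3 or replicate 4, with upper-quartile factors and with an offset for GC content (adjusted p up to 0.135). HNRNPL had 234 ± 4.60 and 232 ± 5.63 CPM in NPY1R high and low, a log2 change of 0.01 (SE 0.04). These changes are all far smaller than that of DSCAM-AS1.

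**Figure D2:**
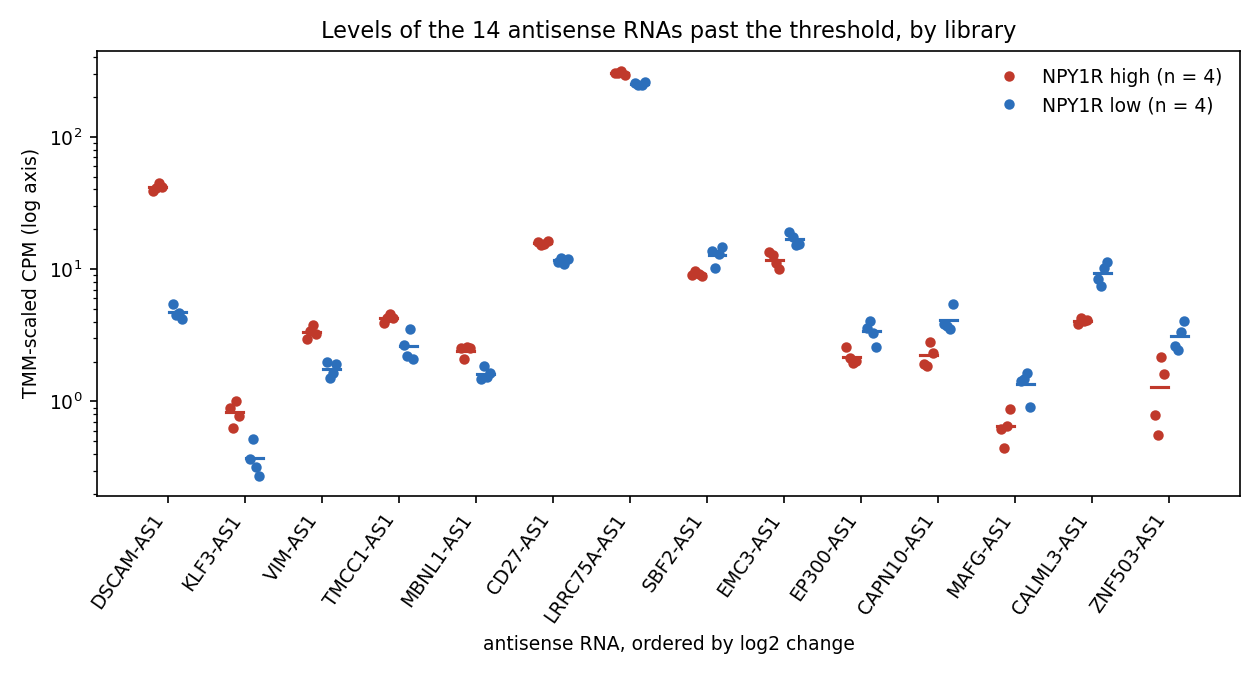
TMM-scaled CPM (log axis) of the 14 antisense RNAs past the threshold in each NPY1R high (red, n = 4) and NPY1R low (blue, n = 4) library, with bars at the group means. The groups do not overlap for any of the 14, and DSCAM-AS1 shows by far the widest gap, with 39.1 to 44.6 CPM against 4.20 to 5.47 CPM. The 14 were selected by their difference in these same libraries, so the lack of overlap is no separate support.

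Starts in GENCODE 29 placed 188 of the antisense RNAs head to head with their sense gene, with opposite strands and starts within 2000 bases of each other. Another 81 overlapped the sense gene with starts farther apart, 1 did not overlap it, and 11 lacked an annotated position for either RNA. Of the head to head RNAs, 4 were higher and 5 lower past the threshold (4.79%), and of the other overlapping RNAs 3 were higher and 1 lower (4.94%). The median changes were 0.09 and 0.06.

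RefSeq promoter windows (GRCh38.p14, 250 bases before to 50 after the start, 300 in all) were matched for 215 of the antisense RNAs, and both windows were matched for 189 pairs. In 61 of those pairs the 2 windows overlap on opposite strands. The sense gene was tested in 60 of these, and both changes had the same sign in 34, beside 148 of all 257 tested pairs. The windows of TMCC1-AS1 and of TMCC1, a protein of the endoplasmic reticulum membrane, are shown because both RNAs rose and 259 bases are shared, printed in capitals. That of TMCC1-AS1 is chr3:129893621-129893920 on the plus strand (RefSeq name TMCC1-DT), that of TMCC1 chr3:129893662-129893961 on the minus strand, each written 5′ to 3′ on its own strand.
TMCC1-AS1: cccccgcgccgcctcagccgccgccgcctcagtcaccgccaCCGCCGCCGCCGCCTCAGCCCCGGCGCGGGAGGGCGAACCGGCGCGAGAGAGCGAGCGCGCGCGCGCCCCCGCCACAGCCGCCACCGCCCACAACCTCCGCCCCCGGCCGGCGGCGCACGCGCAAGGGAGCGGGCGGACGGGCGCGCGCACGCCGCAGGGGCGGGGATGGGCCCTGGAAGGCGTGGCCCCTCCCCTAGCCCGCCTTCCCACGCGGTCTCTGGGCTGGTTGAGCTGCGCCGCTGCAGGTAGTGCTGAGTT
TMCC1: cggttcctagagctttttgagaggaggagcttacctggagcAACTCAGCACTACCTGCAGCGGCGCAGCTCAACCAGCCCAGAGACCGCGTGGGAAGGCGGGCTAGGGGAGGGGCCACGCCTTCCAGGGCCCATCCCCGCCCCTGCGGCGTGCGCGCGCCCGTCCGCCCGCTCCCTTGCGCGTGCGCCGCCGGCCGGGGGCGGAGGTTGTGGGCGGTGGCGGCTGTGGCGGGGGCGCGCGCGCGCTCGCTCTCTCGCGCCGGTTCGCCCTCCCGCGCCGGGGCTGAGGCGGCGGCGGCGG
Both windows are rich in CG dinucleotides, with 49 and 43 of them, where the median over 35114 RefSeq promoter windows was 14 and that over the 215 antisense RNAs 26.

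The next windows belong to VIM-AS1 and EMC3-AS1, which changed in the direction of their sense genes, and to LRRC75A-AS1, the most abundant member. They are chr10:17229936-17230235 (minus strand), chr3:9986643-9986942 (plus strand) and chr17:16438737-16439036 (plus strand, RefSeq name SNHG29), again in GRCh38.p14. Capitals mark matches on either strand to AGGTCA, the core of the estrogen receptor and related nuclear receptor sites, to TGTTTAC, a forkhead site, to CCGGAAG, an ETS site, or to the CCAAT box.
VIM-AS1: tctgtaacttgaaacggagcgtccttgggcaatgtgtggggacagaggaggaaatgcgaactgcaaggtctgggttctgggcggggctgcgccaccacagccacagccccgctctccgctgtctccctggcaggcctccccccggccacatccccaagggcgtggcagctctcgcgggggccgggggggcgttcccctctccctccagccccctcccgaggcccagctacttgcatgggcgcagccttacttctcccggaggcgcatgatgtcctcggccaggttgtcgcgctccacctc
EMC3-AS1: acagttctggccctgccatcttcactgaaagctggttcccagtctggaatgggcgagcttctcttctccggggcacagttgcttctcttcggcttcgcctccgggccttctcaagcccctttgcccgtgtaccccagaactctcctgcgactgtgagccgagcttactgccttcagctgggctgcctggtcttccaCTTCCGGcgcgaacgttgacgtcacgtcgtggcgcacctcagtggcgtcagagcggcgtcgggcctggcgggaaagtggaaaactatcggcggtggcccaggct
LRRC75A-AS1: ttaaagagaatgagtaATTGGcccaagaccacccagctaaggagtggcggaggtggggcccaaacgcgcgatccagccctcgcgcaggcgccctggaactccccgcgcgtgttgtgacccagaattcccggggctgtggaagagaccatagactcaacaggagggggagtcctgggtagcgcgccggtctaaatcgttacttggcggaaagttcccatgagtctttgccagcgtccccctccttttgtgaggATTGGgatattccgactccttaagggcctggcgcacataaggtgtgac
The EMC3-AS1 window holds 1 ETS site and that of LRRC75A-AS1 holds 2 CCAAT boxes, while none of the 4 motifs is in the VIM-AS1 window. AGGTCA was found in 20 of the 215 antisense windows (9.30%) and in 13.8% of all RefSeq windows. The shares were 4.19% and 3.42% for TGTTTAC, 16.7% and 10.3% for CCGGAAG, and 33.0% and 34.6% for CCAAT. No window was matched for DSCAM-AS1, KLF3-AS1 or MBNL1-AS1, so the motif counts do not cover them. Of the 11 RNAs past the threshold with a window, 2 had AGGTCA, namely EP300-AS1 and ZNF503-AS1, which both fell. None of the 4 motifs contains another, and a match describes the letters only.

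Besides DSCAM-AS1, 2 antisense RNAs rose together with their sense gene past the threshold. At the nearest annotated starts VIM-AS1 begins 19 bases from VIM, the gene of the intermediate filament vimentin of mesenchymal cells. The RefSeq windows of the pair do not overlap. VIM-AS1 had 2.96, 3.42, 3.77 and 3.21 CPM in NPY1R high replicates 1 to 4. In NPY1R low replicates 1 to 4 it had 1.99, 1.51, 1.65 and 1.92 CPM. The log2 change was 0.92 (SE 0.16, edgeR adjusted p 0.00349), and VIM changed by 1.09 (SE 0.10), from 54.2 ± 6.88 to 115 ± 10.3 CPM. The log2 ratio of VIM-AS1 to VIM differed by -0.20 between the groups (exact permutation p 0.257), within the spread between libraries. Of the exon bases of VIM-AS1 32.2% overlap exons of VIM, and in 4 libraries the count of VIM-AS1 was not whole but added up to a whole number with that of VIM, so part of its reads had been divided with the sense gene.

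TMCC1-AS1, with starts 205 bases apart and no exon overlap, had 3.92, 4.31, 4.56 and 4.24 CPM in NPY1R high replicates 1 to 4. It had 2.65, 2.21, 3.52 and 2.08 CPM in NPY1R low replicates 1 to 4, where replicate 3 came closest to the other group. The log2 change was 0.71 (SE 0.18, edgeR adjusted p 0.0251), beside 0.34 (SE 0.05) for TMCC1, which had 84.5 ± 1.24 and 66.8 ± 3.70 CPM. The call of TMCC1-AS1 was lost without NPY1R high replicate 2, 3 or 4 and without NPY1R low replicate 1 or 2, with an adjusted p of up to 0.0676. EMC3-AS1 was the 1 antisense RNA that fell together with its sense gene. It went from 16.9 ± 1.84 to 11.8 ± 1.58 CPM, a log2 change of -0.51 (SE 0.12, edgeR adjusted p 0.02), and EMC3, a subunit of the complex that inserts membrane proteins into the endoplasmic reticulum, changed by -0.29 (SE 0.08, adjusted p 0.0305). EMC3-AS1 lost the threshold in 4 of the 8 fits that left out a library, those without NPY1R high replicate 3 or 4 or NPY1R low replicate 1 or 2 (adjusted p up to 0.074), and EMC3 lost it in 10 of 18 alternatives.

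KLF3-AS1 was the 1 antisense RNA past the threshold whose sense gene passed it in the other direction. It was scarce, with 0.893, 0.632, 1.01 and 0.771 CPM in NPY1R high replicates 1 to 4 and 0.369, 0.525, 0.320 and 0.275 CPM in NPY1R low replicates 1 to 4, which are 14 to 28 and 7 to 15 counts. KLF3, a transcription factor that represses its targets, had 73.6 ± 2.70 CPM in NPY1R high, against 98.8 ± 12 in NPY1R low. The log2 changes were 1.13 (SE 0.28, adjusted p 0.0235) for KLF3-AS1 and -0.42 (SE 0.08, adjusted p 0.00769) for KLF3 by edgeR. Their log2 ratio differed by 1.44 between the groups (exact permutation p 0.0286, the least this design can reach). KLF3-AS1 lost the threshold with a replicate block and without replicates 1 or 3 of either group (adjusted p up to 0.0696).

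The other 3 rises had a sense gene that did not pass or was too scarce to test. LRRC75A-AS1, also named SNHG29, is a host of small nucleolar RNAs, and at 304, 302, 314 and 291 CPM in NPY1R high replicates 1 to 4 it was the most abundant member. In NPY1R low replicates 1 to 4 it had 256, 245, 244 and 260 CPM. The difference is small but larger than the spread between libraries, with a log2 change of 0.27 (SE 0.05, edgeR adjusted p 0.00404). LRRC75A, a gene of little known function, had 7.80 ± 0.585 and 9.52 ± 0.561 CPM in NPY1R high and low, and the log2 ratio of the pair differed by 0.56 (exact permutation p 0.0286). CD27-AS1 had 15.7 ± 0.512 CPM in NPY1R high, against 11.6 ± 0.521 in NPY1R low, a log2 change of 0.44 (SE 0.08, edgeR adjusted p 0.00559). CD27, a receptor of lymphocytes, had at most 0.194 CPM in any library and was not tested. MBNL1-AS1, beside the splicing regulator MBNL1, had 2.43 ± 0.234 and 1.62 ± 0.160 CPM in NPY1R high and low. Its log2 change was 0.57 (SE 0.16, edgeR adjusted p 0.037), and 8 of 18 alternatives lost the call, among them DESeq2, the replicate block and 6 fits that left out a library (adjusted p up to 0.0993). MBNL1 had 205 ± 5.96 and 211 ± 6.93 CPM, and in all 8 libraries the non-whole count of MBNL1-AS1 added up to a whole number with that of MBNL1.

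Of the 7 falls, the best supported was CALML3-AS1. It had 3.88, 4.24, 4.05 and 4.13 CPM in NPY1R high replicates 1 to 4 and 8.46, 7.50, 10.2 and 11.4 CPM in NPY1R low replicates 1 to 4, so the highest NPY1R high library was well below the lowest NPY1R low library. The log2 change was -1.20 (SE 0.15, edgeR adjusted p 0.000471). CALML3, a calmodulin-like protein of epithelial cells, had 0 to 5 counts a library and was not tested. CAPN10-AS1, which starts 17 bases from CAPN10, the gene of a calpain protease, had 1.92, 1.86, 2.82 and 2.31 CPM in NPY1R high replicates 1 to 4. In NPY1R low replicates 1 to 4 it had 3.86, 3.75, 3.52 and 5.42 CPM. Its log2 change was -0.89 (SE 0.20, edgeR adjusted p 0.014). CAPN10 itself had 5.81 ± 1.47 and 5.89 ± 2.15 CPM in NPY1R high and low, and the log2 ratio of the pair differed by -0.91 (exact permutation p 0.114), within the spread between libraries. NPY1R low replicate 4 had a ratio of 0.94, those of replicates 1 to 3 lay between -1.03 and -0.80, and without replicate 4 the difference was -0.46 (exact permutation p 0.2). The falls of CALML3-AS1 and CAPN10-AS1 passed the threshold under all 18 alternatives.

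The remaining 4 falls lost the threshold under many alternatives. ZNF503-AS1, beside the zinc finger repressor gene ZNF503, ranged from 0.558 to 2.17 CPM in NPY1R high and from 2.45 to 4.08 CPM in NPY1R low. Its log2 change of -1.30 (SE 0.38, edgeR adjusted p 0.0472) was not called in 12 of 18 alternatives. MAFG-AS1, named after a small MAF transcription factor, had 0.649 ± 0.179 and 1.37 ± 0.322 CPM in NPY1R high and low, a log2 change of -1.09 (SE 0.27, edgeR adjusted p 0.0231) lost in 7 of 17. EP300-AS1, which overlaps 5489 bases at the far end of the gene of the histone acetyltransferase EP300, had 2.17 ± 0.278 and 3.39 ± 0.616 CPM, with 10 of 18 alternatives losing the call. SBF2-AS1 had 9.17 ± 0.387 and 12.9 ± 1.94 CPM, with 9 of 18 losing it, and its non-whole counts added up to whole numbers with those of SBF2, a regulator of membrane traffic, in all 8 libraries.

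Of the 8 most abundant members, LRRC75A-AS1 passed the threshold and the other 7 did not, although with the GC offset FGD5-AS1 (edgeR adjusted p 0.0348) and THAP9-AS1 (edgeR adjusted p 0.0301) passed as lower. FGD5-AS1, with 196 ± 8.38 CPM in NPY1R high, against 215 ± 8.38 in NPY1R low, had a log2 change of -0.14 (SE 0.05, edgeR adjusted p 0.119). OIP5-AS1, a cytoplasmic RNA known for binding a microRNA, had 61.3 ± 5.36 and 64.5 ± 2.49 CPM and a change of -0.07 (SE 0.07). Its sense gene OIP5, which takes part in the loading of the centromere protein CENPA, fell by 0.42 on the log2 scale (SE 0.11, edgeR adjusted p 0.0247). That call was lost without a filter and without NPY1R high replicate 3 or 4. It was also lost without NPY1R low replicate 1, 2 or 3, with an edgeR adjusted p of up to 0.0854 in these fits. The ratio of OIP5-AS1 to OIP5 differed by 0.35 (exact permutation p 0.0286). FAM83H-AS1, WAC-AS1, DHRS4-AS1, THAP9-AS1 and PSMD5-AS1 averaged 86.4, 78.9, 68.6, 68.1 and 63.3 CPM, and their changes lay between -0.18 and 0.09. Per kilobase of transcript LRRC75A-AS1 stood first at 349 CPM, followed by FGD5-AS1 at 126, FAM83H-AS1 at 124 and THAP9-AS1 at 119 CPM, and DSCAM-AS1 was number 18. The transcript length is the median over the annotated transcripts of a gene, so these levels are approximate.

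Of the 281 antisense RNAs, 257 had a sense gene that was tested too. Among the 252 distinct sense genes tested, 18 were higher and 23 lower past the threshold, or 16.3%, beside 13.6% of all tested genes. Both RNAs of a pair passed in 5 pairs, in the same direction for DSCAM, VIM, TMCC1 and EMC3 and in opposite directions for KLF3. The antisense RNA did not pass in the other 36 pairs whose sense gene did. Those include the mitotic genes GTSE1, SPAG5 and PRC1. Their log2 changes were -0.91 (SE 0.15), -0.87 (SE 0.07) and -0.77 (SE 0.09), while GTSE1-AS1, SPAG5-AS1 and PRC1-AS1 had -0.15 (SE 0.33), 0.17 (SE 0.16) and 0.22 (SE 0.42). The difference within these pairs was not tested. In all 8 libraries the non-whole count of PRC1-AS1 added up to a whole number with that of PRC1. The counts of SPAG5-AS1 were not whole in any of the 8 libraries, so the levels of these 2 RNAs are estimates. The 2 antisense RNAs whose sense gene is on the list of G2 and M phase genes were GTSE1-AS1 and TMPO-AS1, and neither passed. TMPO-AS1 had 2.57 ± 0.470 and 3.72 ± 0.539 CPM in NPY1R high and low, and TMPO, a protein of the nuclear envelope, fell by 0.27 (SE 0.06). Non-whole counts of TMPO-AS1 and TMPO also gave whole sums in all 8 libraries. Of the 14 with a zinc finger sense gene 1 passed, ZNF503-AS1, and of the 2 from HOX loci none did, with changes of 0.30 (SE 0.23) for HOXC-AS3 and 0.12 (SE 0.30) for HOXC13-AS.

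Across the 256 tested pairs other than DSCAM, the changes of antisense RNA and sense gene correlated weakly, with Pearson's r of 0.25 and Spearman's rho of 0.23, and had the same sign in 147 (57.4%). With DSCAM included r was 0.48, so that value rests on 1 pair. Pairs are not independent replicates, since all come from the same 8 libraries and some share reads. The antisense RNA had the lower CPM in 229 of 257 pairs. Per kilobase it was lower in 215 of the 251 pairs with a length for both genes, at a median of 6.34% of the level of the sense gene. The length used is the median over annotated transcripts, from 496 bases for EP300 to 6176 for DSCAM among the named sense genes. Where short transcripts lower the median of a sense gene, its level per kilobase comes out too high and the percentage too low.

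**Figure D3:**
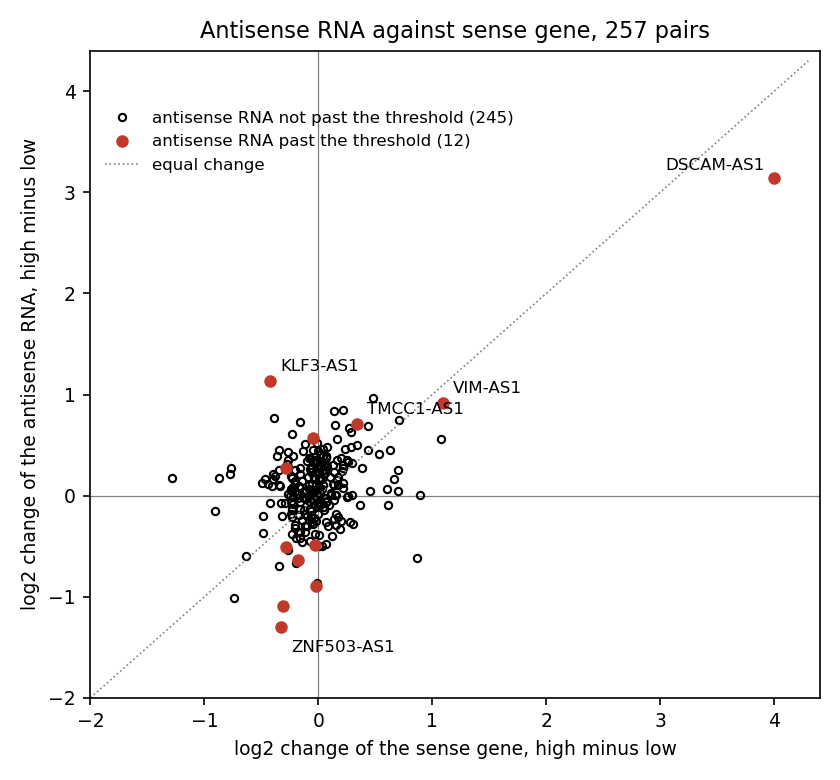
Log2 change, NPY1R high minus NPY1R low, of the antisense RNA (vertical axis) against that of its sense gene (horizontal axis) in the 257 tested pairs, with red points for antisense RNAs past the threshold and a dotted line of equal change. DSCAM-AS1 and DSCAM, at 3.14 and 4.00, stand alone at the upper right, and KLF3-AS1 rose while KLF3 fell.

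The ratio of antisense RNA to sense gene was computed in each library for the 21 named pairs. In 8 of them the libraries of the 2 groups separated fully (exact permutation p 0.0286, the smallest of 70 splits), and no adjustment over the pairs is given. Antisense RNAs past the threshold were selected by their difference in these same libraries. Their ratios, here and above, are therefore no separate support. Among the 8 this holds for KLF3-AS1, MBNL1-AS1, LRRC75A-AS1, SBF2-AS1 and MAFG-AS1. The ratio was higher in NPY1R high for KLF3-AS1, MBNL1-AS1, LRRC75A-AS1, OIP5-AS1, WAC-AS1 (0.26) and PSMD5-AS1 (0.21), and lower for SBF2-AS1 (-0.44) and MAFG-AS1 (-0.67). For WAC-AS1 and PSMD5-AS1 the antisense RNA had changes of 0.09 (SE 0.05) and -0.02 (SE 0.06), and their sense genes WAC and PSMD5 of -0.17 (SE 0.06) and -0.22 (SE 0.05). With a prior count of 5 the exact permutation p rose to 0.0571 for MAFG-AS1. It was also 0.0571 for PSMD5-AS1 and MAFG-AS1 without any 1 of the 4 NPY1R high libraries. The same value was found for SBF2-AS1 without NPY1R high replicate 1, 3 or 4. In these fits without a library the groups still separated fully in the ratio. An exact permutation p of 0.0286 remained within reach there. KLF3-AS1, OIP5-AS1, WAC-AS1 and LRRC75A-AS1 kept it in every such fit. The 0.0571 thus means that another split of the libraries gave a difference at least as large.

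**Figure D4:**
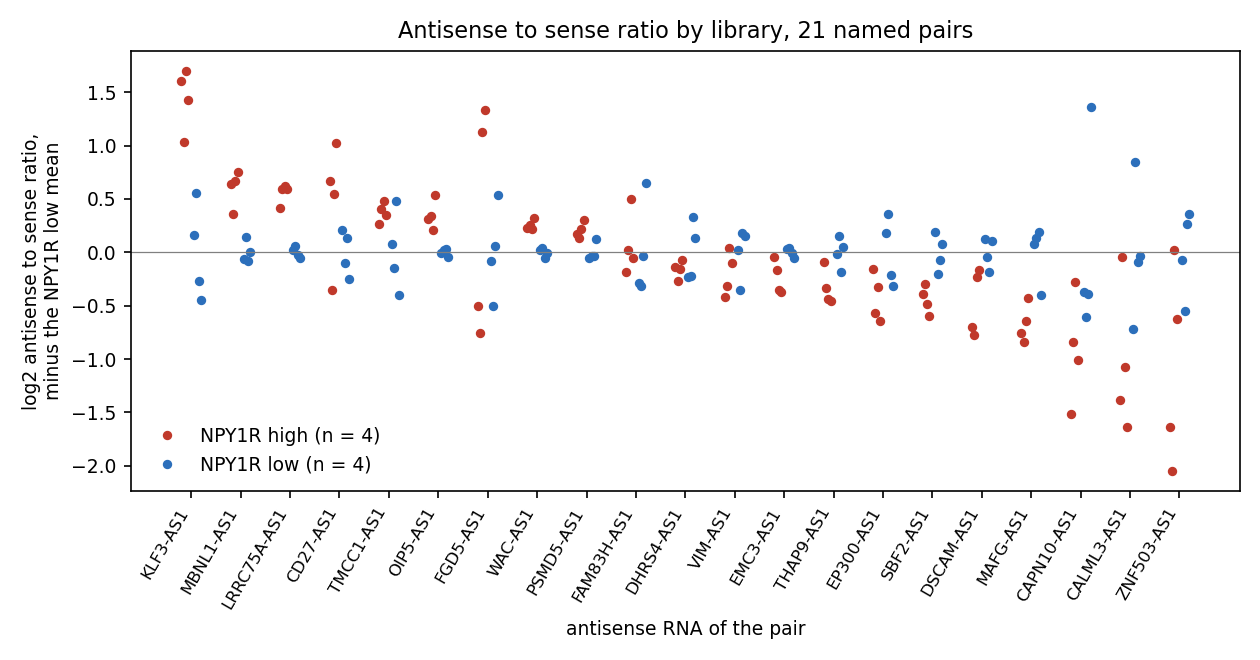
Log2 ratio of antisense to sense counts in each NPY1R high (red, n = 4) and NPY1R low (blue, n = 4) library for the 21 named pairs, each minus the mean of its NPY1R low libraries and ordered by the difference between the groups. The ratio of KLF3-AS1 was 1.44 higher in NPY1R high, and the points of the 2 groups overlap for most pairs in the middle.

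The decimals of the estimated counts show where reads were divided between genes. Of the values of antisense RNAs whose exons overlap those of the sense gene, 38.8% (587 of 1512) were not whole numbers, and in 471 of these 587 (80.2%) the sum with the sense gene was whole within 0.015. Where exons do not overlap, 4.48% of the values (29 of 648) were not whole, and 17 of those 29 (58.6%), in 4 pairs, also gave a whole sum. In 86 of the 189 pairs with overlapping exons at least 1 library showed such a sum, so the counting had divided reads between genes on opposite strands there. The library kit keeps strand, per the labels' protocols. For these pairs the split between the RNAs is an estimate, and their changes are uncertain to that extent. Among the 14 RNAs past the threshold such sums were found for VIM-AS1, MBNL1-AS1, SBF2-AS1 and CD27-AS1, and for DSCAM-AS1, KLF3-AS1, TMCC1-AS1, LRRC75A-AS1, EP300-AS1, CAPN10-AS1, MAFG-AS1 and CALML3-AS1 all counts of both RNAs were whole. The counts of EMC3-AS1 were not whole in any of the 8 libraries, and none gave a whole sum with EMC3. Whole counts show no divided reads, but they do not show that every read came from the strand of the antisense RNA.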

How the data were processed

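The authors deposited expected counts, estimated for each gene symbol and left unscaled, in 1 table of the series, per the file headers and the values. STAR 2.5.2, RSEM 1.3.0 and the build hg38 are named in the submitters' processing notes. The annotation and the strand setting of the counting are not given in the sources used here. The single-sample tables of the 8 libraries repeat it (0 values differed), and unmatched columns numbered 0. Tests ran on these expected counts after rounding, while printed CPM use the unrounded values. Genes were filtered with edgeR's filterByExpr (minimum count 10), leaving 14008, and scaled by TMM (factors 0.974 to 1.04). NPY1R high and low were compared by the quasi-likelihood test without covariates (R 4.3.3, edgeR 4.0.16, limma 3.58.1, DESeq2 1.42.0), tested on simulated data. Ratios used a prior count of 2 and exact two-sided permutation tests over 70 splits, or over fewer where a library was left out.

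The labels do not say whether replicates were separate cultures, so p-values measure the spread between these libraries. Within groups, any 2 libraries differed by a chi-square of 6 to 66.4 per degree, above sampling noise. Deviations of same-numbered libraries correlated at 0.339, 0.157, 0.0872 and 0.0207 across genes, short of the criterion for pairs. Counting error is only part of this spread.

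The members and gene lists were chosen with earlier results of these data known. Named were DSCAM-AS1, its linked genes, every member past the threshold, the 8 most abundant members and the sense genes of all these. Others (GTSE1-AS1, SPAG5-AS1, PRC1-AS1, TMPO-AS1, the HOX RNAs and those in the closing section) were chosen after their values were seen. Positions came from GENCODE 29, in which 274 of the 281 RNAs were matched by current or older symbol, leaving out older symbols that led to a gene the table also names directly (as for HNRNPU-AS1). Alternatives were other scalings, filters and tools, a replicate block, a term for replicates 1 and 2 against 3 and 4, a GC offset (a spline with 5 degrees of freedom) and leaving out each library.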

Additional observations from a re-analysis of the deposited data

Results flagged for a closer look

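Among 92 group values of the named genes, 6 had a library whose gap to the nearest of the other 3 was more than 0.829 of the range of its group, the 95% critical value of Dixon's test for 4 samples. Chance alone gives about 1 in 20, here 4.6. MBNL1-AS1 had 2.08 CPM in NPY1R high replicate 2, and the other NPY1R high libraries had 2.53 to 2.56 CPM. PSMD5-AS1 had 70.8 CPM in NPY1R low replicate 4, where the others had 60.1 to 61.8 CPM. The other 4 are sense genes. TMCC1 had 86.3 CPM in NPY1R high replicate 4, beside 83.8 to 84.0 CPM. MBNL1 had 201 CPM in NPY1R low replicate 1, beside 214 to 216 CPM. ZNF503 had 5.28 CPM in NPY1R high replicate 3, beside 6.26 to 6.39 CPM. FAM83H had 43.5 CPM in NPY1R high replicate 3, beside 73.5 to 79.7 CPM, and NPY1R low replicate 4 had a like value of 43.3 CPM.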

How the results depend on the processing

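Over 18 alternative fits, 6 to 26 antisense RNAs passed the threshold (2.14% to 9.25%), below the share of all genes in each of the 18, and between 6 and 14 of the 14 calls were kept. The 6 RNAs kept in all were DSCAM-AS1, VIM-AS1, CD27-AS1, LRRC75A-AS1, CAPN10-AS1 and CALML3-AS1. With the term for replicates 1 and 2 against 3 and 4, 15 were higher and 11 lower, 64 sense genes passed in place of 41, and 21 LINC RNAs in place of 12. With the GC offset 12 antisense RNAs were higher and 20 LINC RNAs passed. Upper-quartile factors left 4 lower. With a replicate block 7 were higher and 8 lower, 10 of the 14 calls remaining, and the calls of KLF3-AS1, MAFG-AS1, MBNL1-AS1 and SBF2-AS1 were lost. Leaving out each library gave 4 (without NPY1R high replicate 3) to 9 higher, 2 (without NPY1R low replicate 1) to 6 lower, 23 (without NPY1R low replicate 1) to 40 sense genes and 5 (without NPY1R high replicate 3) to 15 LINC RNAs. The ratio of DSCAM-AS1 to DSCAM ranged from -0.57 to -0.37 without each library, passed without NPY1R high replicate 4, and was -0.76 with a prior count of 0.5 and -0.47 as the mean of same-numbered differences under a replicate block. The causes were not tested.

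No RNA past the threshold changed direction. Changes near 0 did. With median-of-ratios factors PSMD5-AS1 was at 0.009 and CAPN10 at 0.003. Library totals gave 0.024 for PSMD5-AS1, 0.018 for CAPN10 and 0.009 for SBF2. Upper-quartile factors gave 0.037, 0.034 and 0.023 for the same genes and 0.007 for MBNL1. Without a filter they were at 0.024, 0.015 and 0.010, and at 1 CPM in 4 libraries at 0.026, 0.017 and 0.011. DESeq2 gave 0.010 for PSMD5-AS1 and 0.006 for CAPN10. CAPN10 was also at 0.012 with a replicate block, 0.002 with the term for replicates, 0.041 with the GC offset and 0.026 with limma-voom, which put FAM83H at -0.005. Without each library in turn, PSMD5-AS1 ranged from -0.042 to 0.076, OIP5-AS1 from -0.12 to 0.003, MBNL1 from -0.056 to 0.013, SBF2 from -0.068 to 0.05, CAPN10 from -0.222 to 0.139, FGD5 from -0.572 to 0.141, FAM83H from -0.125 to 0.199 and HNRNPL from -0.003 to 0.063. The ratios of FGD5-AS1 (-0.045 to 0.651) and FAM83H-AS1 (-0.072 to 0.285) did so too. The median SE of the members between 0.5 and 5 CPM was 0.24, and that of all genes of this level 0.25. Passing the threshold took a change of several SE. At such an SE, changes of about that size or moderately above it were therefore not detectable.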

Other observations

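Several antisense RNAs stood close to the threshold without passing it. NIPBL-AS1, head to head with the cohesin loader gene NIPBL, had 28.1 ± 1.94 CPM in NPY1R high, against 23.9 ± 1.09 in NPY1R low (mean and SD, n = 4), with a log2 change of 0.24 (SE 0.08, edgeR adjusted p 0.0687). Its groups did not overlap, and it passed in 7 of 18 alternatives, while NIPBL had a change of -0.001 (SE 0.07). TMEM161B-AS1 had 1.07 ± 0.179 and 0.638 ± 0.0786 CPM, with an edgeR adjusted p of 0.0503, and passed in 4. LOXL1-AS1, beside the lysyl oxidase gene LOXL1, had 15.0 ± 1.52 and 10.9 ± 2.52 CPM in NPY1R high and low, and KRTAP5-AS1 had 8.89 ± 1.42 and 12.4 ± 2.16 CPM. Each of these 2 passed in 5 alternatives.

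Among sense genes that rose past the threshold with an antisense RNA that did not, the 4 largest changes were those of SH3BP5, a regulator of RAB11, with 1.07 (SE 0.10), PDZRN3 with 0.71 (SE 0.15), ST7 with 0.70 (SE 0.07) and PTPRG, a receptor tyrosine phosphatase, with 0.70 (SE 0.06). The changes of SH3BP5-AS1, PDZRN3-AS1, ST7-AS1 and PTPRG-AS1 were 0.56 (SE 0.22), 0.75 (SE 0.30), 0.26 (SE 0.26) and 0.04 (SE 0.20), and the differences within these pairs were not tested. Non-whole counts gave whole sums with the sense gene in 8 libraries for SH3BP5-AS1 and in 2 for ST7-AS1.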
